A study of Mus musculus with 6 samples.

Results

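The mRNAs described here are those of cytosolic HSP90 and its cochaperones, measured by RNA-seq in E0771, a breast cancer cell line that arose in C57BL/6 mice. The 10 members were chosen by name as Hsp90aa1, Hsp90ab1, Ahsa1, Stip1, Cdc37, Ptges3, Fkbp4, Fkbp5, Chordc1 and Hsf1, and all 10 had a row in both deposited tables, out of 10932 genes listed in both. Cells grown for 48 h in plates were given Enniatin A (EnnA, a cyclic depsipeptide mycotoxin that carries cations across membranes) at 7.4 µM for 24 h, 17-AAG (a derivative of geldanamycin that occupies the ATP-binding pocket of HSP90) at 0.5 µM for 24 h, or the solvent DMSO, whose time is not given in the labels. Each of the 3 groups had 2 libraries, and the authors' tables give 1 FPKM value per gene and group over both libraries, so no value per library and no SD can be shown. The model is a single cell line treated in culture, with no wild-type or normal mammary cells beside it. The study's title names inhibition of HSP90, and the comparisons here ask how the mRNAs of that chaperone and its partners stood after each compound.

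HSP90 is an ATP-driven chaperone dimer that completes the folding of kinases, steroid hormone receptors and many other clients. Cochaperones set its cycle: some deliver clients, some hold the dimer open or closed, and some speed ATP hydrolysis. HSP90 also binds the transcription factor HSF1 and restrains it, and drugs that occupy the ATP pocket are known to release HSF1 onto heat shock elements, which are inverted repeats of the unit NGAAN in front of chaperone genes. Tumour cells commonly carry high levels of HSP90.

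The groups of genes below were counted with the authors' deposited q-values (Cuffdiff), and the threshold for a call was q under 0.05. Log2 changes are log2((compound + 1)/(DMSO + 1)) of FPKM, and the error beside each is the standard error (SE) that the authors' p implies, which is an upper limit for genes at the lowest p of 5e-05. Depth per library is unknown, because the tables hold no counts. Whether the 2 libraries per group stem from separate cultures is not stated in the labels, so the p-values speak only for the spread between these libraries, which may be technical. DMSO values were 1.10 times as high in the 17-AAG table as in the EnnA table, for the median gene and for every member, so each compound is set against the DMSO value of its own table. Of 12 mammary epithelial markers 3 had a row, Elf3, Epcam and Krt8 (11.2 FPKM with EnnA against 17.7 FPKM with DMSO, and 29.3 FPKM with 17-AAG against 19.3 FPKM with DMSO), while 0 of 10 lymphocyte and 0 of 6 endothelial markers had one. Of 10 mesenchymal markers 6 had a row, from Col1a1 at 0.566 FPKM to Vim at 2746 FPKM with DMSO in the EnnA table.

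17-AAG raised both cytosolic HSP90 genes, the ATPase activator gene Ahsa1 and the HSP90-binding cochaperone gene Chordc1, and lowered the immunophilin gene Fkbp5. EnnA moved no member past the threshold. With 17-AAG 4 of 10 members were higher and 1 was lower, where 15.6% and 16.1% of the 11305 genes of the table were called higher and lower (31.6% in either direction). Every member averaged at least 20 FPKM, and among the 4713 genes at such a level, a comparison added after the values were seen, 6.32% were higher and 25.7% lower with 17-AAG (32.1% in all). With EnnA 0 of 10 members were called, and 0 of 10 had an unadjusted Cuffdiff p under 0.05, the lowest being 0.101. Among all 11024 genes with EnnA, 6001 had a p under 0.05. The whole EnnA table had 49.2% of 11024 genes called, 24.3% higher and 24.9% lower. Among its 4514 genes of at least 20 FPKM on average, 49.8% were called, 33.2% higher and 16.7% lower. The median log2 change of the members was 0.07 with EnnA and 0.27 with 17-AAG, where the median of all genes was -0.01 in each table.

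Hsp90ab1 encodes the constitutive cytosolic form, HSP90 beta, and was the most abundant member in every group. It stood at 1589 FPKM with EnnA against 1522 FPKM with DMSO, a log2 change of 0.06 (implied SE 0.16, 95% interval -0.26 to 0.38) that was not called. With 17-AAG it stood at 2892 FPKM against 1668 FPKM with DMSO, 1.73-fold higher (log2 change 0.79, implied SE at most 0.20, authors' q = 0.000453 by Cuffdiff). That change was at percentile 97.0 of all changes in the 17-AAG table, and at percentile 55.3 in the EnnA table. Its locus is chr17:45704726-45710210 in mm9, as the authors' tables give it.

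Hsp90aa1 encodes the stress-inducible cytosolic form, HSP90 alpha, at mm9 chr12:111929245-111934605. It reached 190.3 FPKM with EnnA against 215.0 FPKM with DMSO, a log2 change of -0.18 (implied SE 0.15, 95% interval -0.46 to 0.11), which was not called. With 17-AAG it reached 367.1 FPKM against 235.6 FPKM with DMSO, 1.56-fold higher (log2 change 0.64, implied SE at most 0.16, authors' q = 0.000453 by Cuffdiff). The inducible form thus stayed the less abundant of the pair in every group, by FPKM, which is a level per transcript length. Hsp90ab1 was 8.35 times Hsp90aa1 with EnnA against 7.08 times with DMSO, and 7.88 times with 17-AAG against 7.08 times with DMSO, ratios for which pooled values give no error.

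Summed over both genes, cytosolic HSP90 mRNA was 1779 FPKM with EnnA against 1737 FPKM with DMSO, and 3259 FPKM with 17-AAG against 1904 FPKM with DMSO. The 7 cochaperone members summed to 1311 FPKM with EnnA against 1222 FPKM with DMSO, and to 1526 FPKM with 17-AAG against 1339 FPKM with DMSO. Per unit of HSP90 mRNA the cochaperone sum was 0.737 with EnnA against 0.704 with DMSO, and 0.468 with 17-AAG against 0.704 with DMSO. With 17-AAG the HSP90 sum was 1.71 times its DMSO value and the cochaperone sum 1.14 times. These sums carry no error and were not tested.

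**Figure D1:**
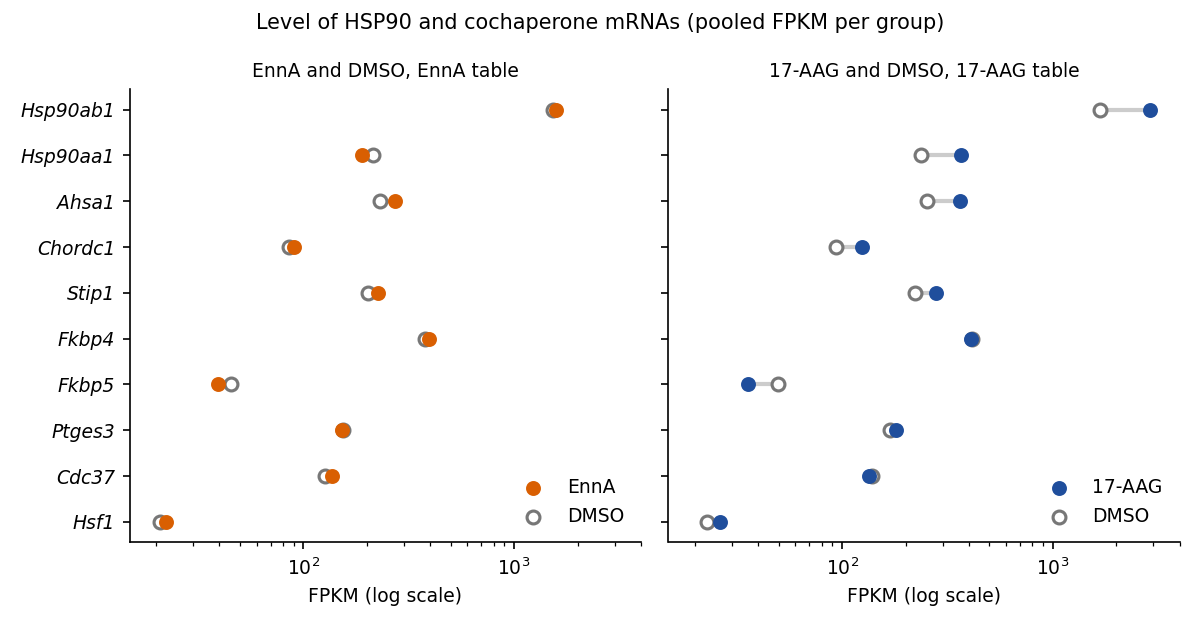
Pooled FPKM (log axis) of the 10 members, with the compound as a filled point and DMSO as an open point, in the EnnA table (left) and the 17-AAG table (right). The filled and open points lie close together with EnnA, while with 17-AAG Hsp90ab1 (2892 against 1668 FPKM), Hsp90aa1, Ahsa1 and Chordc1 lie to the right of DMSO and Fkbp5 lies to its left.

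Promoter windows from RefSeq (GRCm38.p6, 250 bases before to 50 after the start) were matched by symbol for 7 of the 10 members: Ahsa1, Stip1, Cdc37, Ptges3, Fkbp4, Fkbp5 and Chordc1. Each was searched for a pair of adjoining inverted heat shock units, GAANNTTC or TTCNNGAA, each of which reads the same on both strands, so matches can overlap where units follow each other. Of the 32851 RefSeq windows, 15.1% held at least 1 such match, and 0.603% held 3 adjoining units (GAANNTTCNNGAA or its reverse complement TTCNNGAANNTTC). Among the members 3 of 7 windows held a match. Shown are both matched genes that rose with 17-AAG, Ahsa1 and Chordc1, and the 2 genes with a match that were not called, Fkbp4 and Cdc37, each 5′ to 3′ on the strand of the gene with the matches in capitals.
Chordc1, chr9:18292017-18292316, plus strand: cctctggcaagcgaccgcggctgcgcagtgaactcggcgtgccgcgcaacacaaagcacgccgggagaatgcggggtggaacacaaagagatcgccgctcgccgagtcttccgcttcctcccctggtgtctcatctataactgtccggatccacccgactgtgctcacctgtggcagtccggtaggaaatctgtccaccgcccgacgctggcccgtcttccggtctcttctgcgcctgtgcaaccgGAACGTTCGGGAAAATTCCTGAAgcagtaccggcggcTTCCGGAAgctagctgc
Ahsa1, chr12:87266478-87266777, plus strand: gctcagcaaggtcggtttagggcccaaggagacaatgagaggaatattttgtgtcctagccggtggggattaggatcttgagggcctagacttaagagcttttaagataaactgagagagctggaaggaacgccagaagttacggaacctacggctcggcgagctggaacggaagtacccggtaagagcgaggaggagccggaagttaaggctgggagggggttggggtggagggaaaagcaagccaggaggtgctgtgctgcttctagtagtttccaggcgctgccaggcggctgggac
Fkbp4, chr6:128438607-128438906, minus strand: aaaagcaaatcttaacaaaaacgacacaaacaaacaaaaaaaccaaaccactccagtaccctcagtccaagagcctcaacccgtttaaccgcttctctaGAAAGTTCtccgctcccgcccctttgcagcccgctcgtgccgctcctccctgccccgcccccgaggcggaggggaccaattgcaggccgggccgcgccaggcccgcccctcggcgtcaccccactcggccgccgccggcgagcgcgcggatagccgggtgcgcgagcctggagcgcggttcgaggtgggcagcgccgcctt
Cdc37, chr9:21149885-21150184, minus strand: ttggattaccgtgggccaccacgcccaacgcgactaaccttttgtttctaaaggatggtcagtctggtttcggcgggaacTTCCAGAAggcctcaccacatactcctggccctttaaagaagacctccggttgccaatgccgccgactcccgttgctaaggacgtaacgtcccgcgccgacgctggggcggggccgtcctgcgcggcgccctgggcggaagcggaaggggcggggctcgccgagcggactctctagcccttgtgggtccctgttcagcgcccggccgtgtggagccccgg

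The Chordc1 window held 5 matches, of which 4 overlap in 1 run of 23 bases, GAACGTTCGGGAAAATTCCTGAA, from position -4 to 19 (the start base counts as 1, with no 0), and the fifth spans 34 to 41. It was the only member window with 3 adjoining units. Of all 32851 windows 3 held as many as 5 matches, and Chordc1 was the 1 such window among the 10738 windows of genes in the 17-AAG table. The Ahsa1 window, of a gene that also rose, held 0 matches. The Fkbp4 window held 1, from -151 to -144, and the Cdc37 window 1, from -170 to -163, and neither gene was called with either compound. The windows of Stip1, Ptges3 and Fkbp5 held none. A match is a string of letters and no measure of binding.

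**Figure D2:**
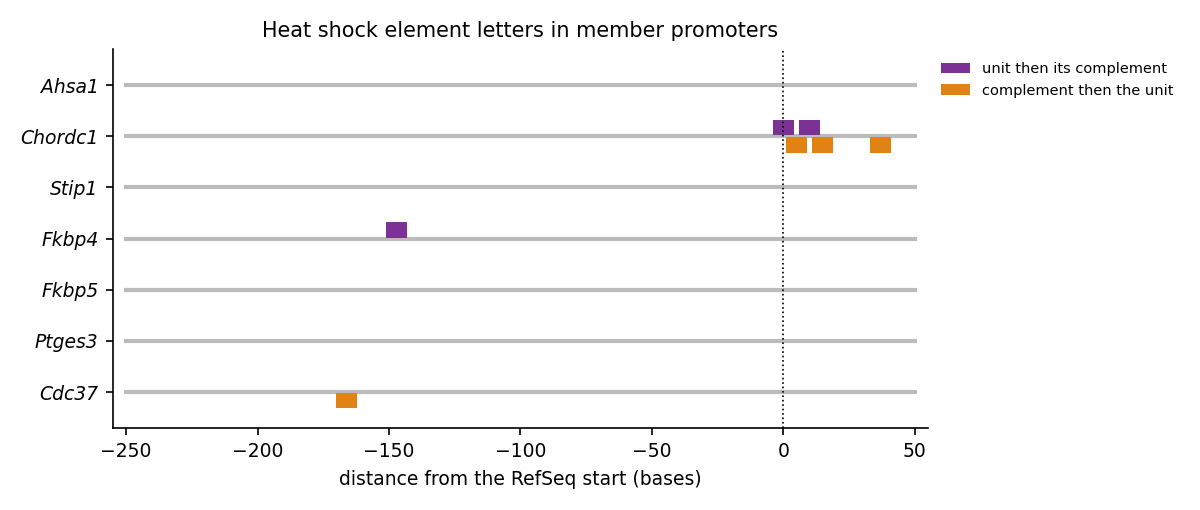
Positions of heat shock element letters (coloured blocks) along the 7 member promoter windows, as distance from the RefSeq start in bases, with purple for a unit followed by its complement and orange for the reverse order. Chordc1 holds 5 matches, all between -4 and 41, Fkbp4 and Cdc37 hold 1 each farther upstream, and the other windows hold 0.

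Ahsa1 encodes the cochaperone that binds the middle domain of HSP90 and speeds its ATPase (mm9 chr12:88607677-88614902). It was at 272.2 FPKM with EnnA against 229.9 FPKM with DMSO, the highest log2 change of any member with that compound, 0.24 (implied SE 0.15, 95% interval -0.05 to 0.53), and was not called. With 17-AAG it was at 362.4 FPKM against 251.9 FPKM with DMSO, 1.44-fold higher (log2 change 0.52, implied SE 0.15, authors' q = 0.00241 by Cuffdiff). Chordc1 encodes a zinc-binding CHORD domain protein that binds HSP90 (mm9 chr9:18096710-18118444). It was at 90.5 FPKM with EnnA against 85.4 FPKM with DMSO (log2 change 0.08, implied SE 0.15, not called). With 17-AAG it was at 124.2 FPKM against 93.5 FPKM with DMSO, 1.33-fold higher (log2 change 0.41, implied SE 0.15, authors' q = 0.022 by Cuffdiff). At a stricter q of 0.01 Chordc1 was the 1 member that lost its call.

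Stip1 encodes the adaptor HOP, which hands clients over from HSP70 to HSP90 (mm9 chr19:7095185-7114516). With EnnA it was at 225.0 FPKM against 201.8 FPKM with DMSO (log2 change 0.16, implied SE 0.15, not called). With 17-AAG it lay just outside the threshold, at 280.3 FPKM against 221.2 FPKM with DMSO (log2 change 0.34, implied SE 0.15, authors' q = 0.0583 by Cuffdiff). Of the 10 members 6 had an unadjusted Cuffdiff p under 0.05 with 17-AAG, the 5 called genes and Stip1. Among all 11305 genes with 17-AAG, 4682 had such a p.

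Fkbp4 and Fkbp5 encode related immunophilins that compete for HSP90 in steroid receptor complexes, Fkbp4 aiding transport and hormone binding of the glucocorticoid receptor and Fkbp5 restraining it. Fkbp5 is itself a known target gene of that receptor. With EnnA Fkbp5 (mm9 chr17:28536039-28623057) was at 39.4 FPKM against 45.1 FPKM with DMSO, not called (log2 change -0.19, implied SE 0.15, 95% interval -0.48 to 0.09). With 17-AAG it was at 35.9 FPKM against 49.5 FPKM with DMSO, 1.38-fold lower (log2 change -0.45, implied SE 0.14, authors' q = 0.00846 by Cuffdiff). Fkbp5 was thus the 1 member called lower. Fkbp4 (mm9 chr6:128380124-128388649), which was not called, was at 394.6 FPKM with EnnA against 378.7 FPKM with DMSO (log2 change 0.06, implied SE 0.15). With 17-AAG it was at 409.7 FPKM against 415.0 FPKM with DMSO (log2 change -0.02, implied SE 0.14, 95% interval -0.30 to 0.26). Fkbp4 stood at 10.0 times the FPKM of Fkbp5 with EnnA and 11.4 times with 17-AAG, against 8.39 times with DMSO in both tables, ratios with no error.

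Ptges3, Cdc37 and Hsf1 were not called with either compound. Ptges3 encodes p23, which stabilises the closed, ATP-bound dimer (mm9 chr10:127496037-127514310). It was at 152.9 FPKM with EnnA against 154.3 FPKM with DMSO, and at 179.7 FPKM with 17-AAG against 169.1 FPKM with DMSO (log2 changes -0.01 and 0.09, implied SE 0.15 and 0.14). Cdc37 encodes the adaptor that brings kinases to HSP90 (mm9 chr9:20942984-20954350). It was at 136.8 FPKM with EnnA against 127.1 FPKM with DMSO, and at 133.4 FPKM with 17-AAG against 139.2 FPKM with DMSO (log2 changes 0.11 and -0.06, implied SE 0.15 and 0.14).

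Hsf1, the gene of the heat shock transcription factor, was the least abundant member (mm9 chr15:76307874-76331402). It was at 22.3 FPKM with EnnA against 20.8 FPKM with DMSO, and at 26.2 FPKM with 17-AAG against 22.8 FPKM with DMSO (log2 changes 0.09 and 0.19, implied SE 0.15 in both). HSF1 is known to be controlled mainly as a protein, which mRNA does not measure. At the implied errors, leaving out genes at the lowest p, a member needed an observed log2 change of 0.33 to 0.37 with EnnA to be called. With 17-AAG it needed 0.34 to 0.36. These are sizes of observed changes, and a true change of such a size can still be missed.

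By FPKM with DMSO the members ran, from high to low, Hsp90ab1, Fkbp4, Ahsa1, Hsp90aa1, Stip1, Ptges3, Cdc37, Chordc1, Fkbp5 and Hsf1, between percentile 61.1 and 99.8 of the EnnA table. Ahsa1, Hsp90aa1 and Stip1 followed each other within 201.8 to 229.9 FPKM in the DMSO column of that table, and Ptges3 and Cdc37 lay at 154.3 and 127.1. With no spread between libraries the order of such near neighbours cannot be told from noise. With 17-AAG Hsp90aa1 (367.1 FPKM) lay above Ahsa1 (362.4 FPKM), and with EnnA below Stip1 (190.3 against 225.0 FPKM).

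**Figure D3:**
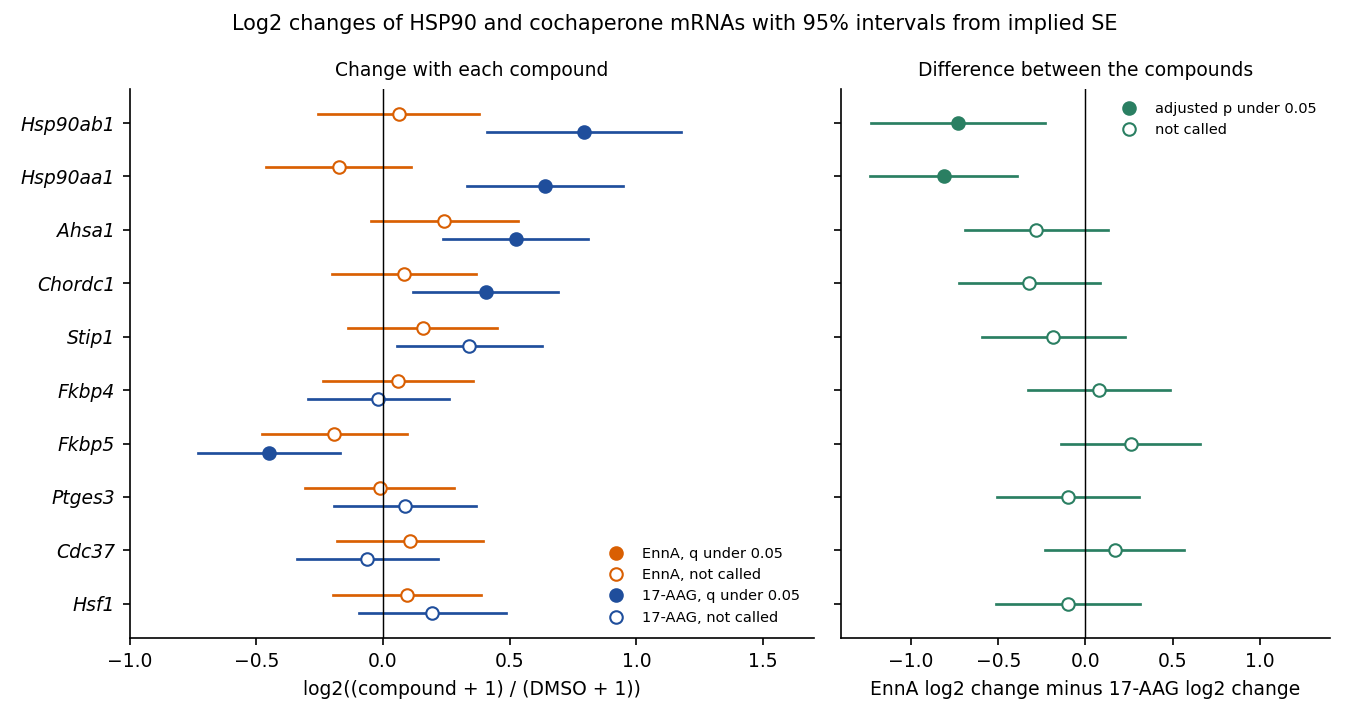
Left, log2 change of each member with EnnA (orange) and 17-AAG (blue) over DMSO, with 95% intervals from the implied SE and filled points for q under 0.05. Right, the EnnA change minus the 17-AAG change, where Hsp90aa1 (-0.81) and Hsp90ab1 (-0.73) are filled, their intervals lying below 0.

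To compare the compounds directly, the 17-AAG log2 change was subtracted from that of EnnA in each of 10932 genes and set against both implied errors in a z test, adjusted by Benjamini-Hochberg over all genes. Of the 10 members 2 differed, both lower with EnnA, and 8 were not called, where 37.9% of all genes were called, 19.3% higher and 18.6% lower with EnnA. Hsp90aa1 differed by -0.81 (SE 0.21, 95% interval -1.23 to -0.39) and Hsp90ab1 by -0.73 (SE 0.25, 95% interval -1.23 to -0.23). At a threshold of 0.01 Hsp90aa1 kept its call and Hsp90ab1 did not. Both genes were at the lowest p with 17-AAG, so their implied SE there (0.16 and 0.20) is an upper limit. The SE of these differences may be too large for that reason also. Chordc1 (-0.32, 95% interval -0.73 to 0.08), Ahsa1 (-0.28, 95% interval -0.69 to 0.13) and Fkbp5 (0.26, 95% interval -0.14 to 0.66), each called with 17-AAG and not with EnnA, were not shown to differ between the compounds. The remaining differences ran from -0.18 for Stip1 to 0.17 for Cdc37. Both tables share the DMSO libraries, so treating their errors as independent makes this SE too large.

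**Figure D4:**
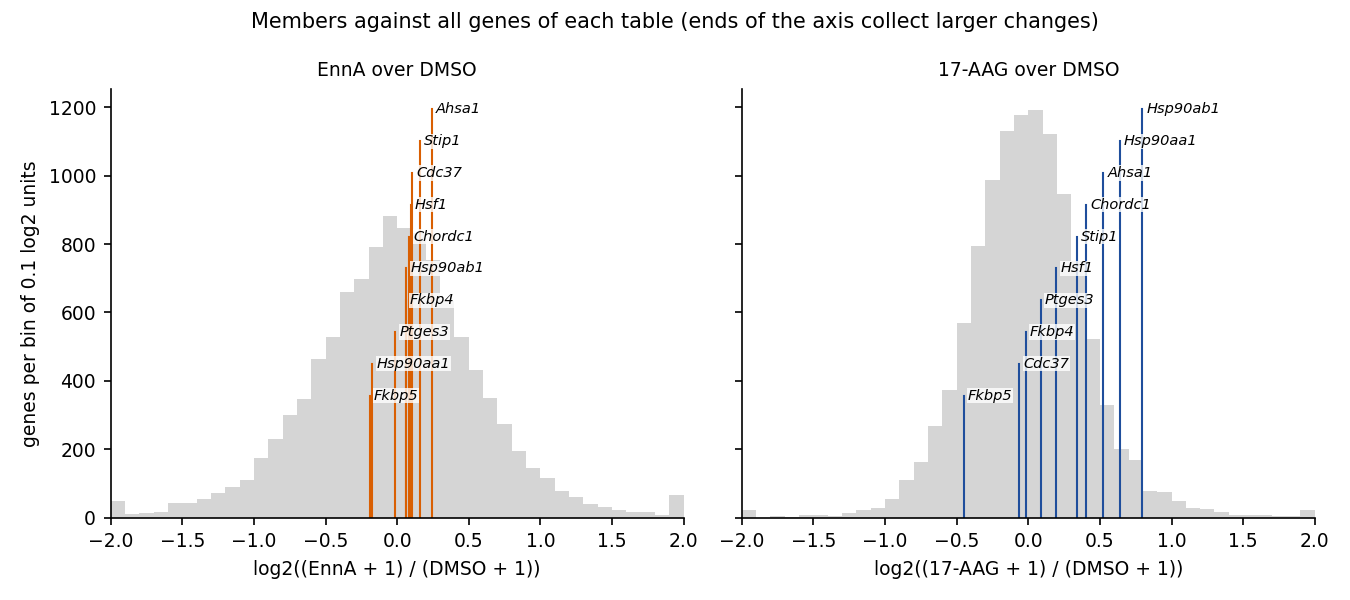
Number of genes per bin of 0.1 log2 units over each whole table (grey bars, EnnA left and 17-AAG right), with a line at the change of each member (line heights only separate the names, and the end bins collect larger changes). With EnnA all 10 lines lie between -0.19 and 0.24, and with 17-AAG they run from -0.45 for Fkbp5 to 0.79 for Hsp90ab1.

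Over both comparisons, the 3 genes nearest to Hsp90aa1 in their pair of log2 changes were Srrm2, Parva and BC016423, at distances of 0.06, 0.07 and 0.07, among 5885 genes with at least 10 FPKM in every group. For Hsp90ab1 they were Mmp11, Cyr61 and Trim25, at distances of 0.06, 0.07 and 0.07. The distance is Euclidean on the log2 scale and rests on 2 comparisons that share DMSO. None of these 6 genes is a member.

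Of the HSP90 forms of other compartments, Hsp90b1 and Trap1, 1 was called with EnnA and none with 17-AAG, where 49.2% and 31.6% of all genes were called. Hsp90b1, the form of the endoplasmic reticulum, was at 1072 FPKM with EnnA against 713.6 FPKM with DMSO (log2 change 0.59, implied SE 0.17, called higher), and at 626.3 FPKM with 17-AAG against 781.9 FPKM with DMSO (log2 change -0.32, not called). Its difference between the compounds, 0.91 (SE 0.22), was called and had the opposite sign to those of Hsp90aa1 and Hsp90ab1. The mitochondrial form Trap1 was not called with either compound (log2 changes -0.06 with EnnA and -0.11 with 17-AAG). Cnpy4, of the canopy family that includes helpers of the endoplasmic reticulum form, fell to 10.7 FPKM with EnnA against 20.5 FPKM with DMSO, and rose to 32.5 FPKM with 17-AAG against 22.4 FPKM with DMSO.

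Of 39 other HSP90 cochaperone genes, 36 had a row in the EnnA table, of which 6 rose, 6 fell and 24 were not called, with a median log2 change of 0.04. For 17-AAG, 37 had a row, of which 6 rose, 3 fell and 28 were not called, with a median of -0.01. Among all genes, 24.3% were called higher and 24.9% lower with EnnA, and 15.6% and 16.1% with 17-AAG. With EnnA the named members were Fkbpl, an immunophilin-like gene, which fell (log2 change -0.98), Cdc37l1, a Cdc37 relative that also fell (-0.53), and the risen genes Pih1d1 (0.70, sharing its locus with Aldh16a1 and so uncertain), Flcn (0.59) and Fnip2 (0.54). FLCN and FNIP2 are partners, and the FNIP proteins are known to slow the HSP90 ATPase that AHSA1 speeds. With 17-AAG Flcn again rose, to 20.3 FPKM against 12.5 FPKM with DMSO. Telo2 (0.56), which with HSP90 helps assemble PI3K-related kinases, also rose with 17-AAG. So did Tsc1 (0.43, and 0.51 with EnnA), another known brake on the HSP90 ATPase. Spag1 was called higher with 17-AAG (0.57) but was low, at 1.10 FPKM against 0.408 FPKM with DMSO, and had no row with EnnA. Sgtb fell with 17-AAG (-0.56). Ppid, the cyclophilin cochaperone, was at 146.9 FPKM with EnnA against 101.7 FPKM with DMSO (called higher), and at 94.0 FPKM with 17-AAG against 111.4 FPKM with DMSO (not called); it was named after its values were seen.

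**Figure D5:**
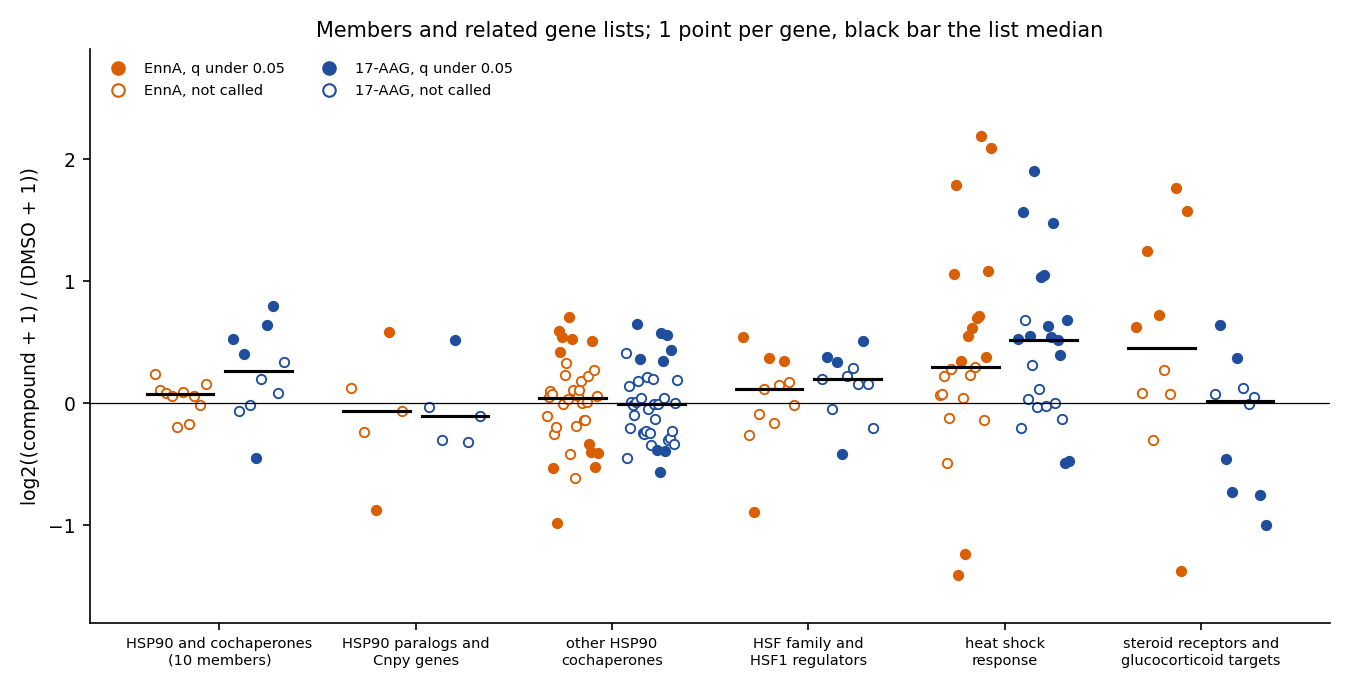
Log2 change of the members and of the genes in the 5 lists of related genes (cell type markers are not plotted) with EnnA (orange) and 17-AAG (blue) over DMSO, 1 point per gene, filled at q under 0.05, with the median of each list as a black bar. The members and the other cochaperones stay within about 1 log2 unit of 0, and among the plotted lists the heat shock genes spread farthest, up to 2.19 with EnnA.

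Genes of the HSF family and HSF1 regulators, of which 13 were listed, were counted next. Of 11 with a row, 3 rose, 1 fell and 7 were not called with EnnA (median 0.11), and 3 rose, 1 fell and 7 were not called with 17-AAG (median 0.20). Over all genes, the shares called higher and lower were 24.3% and 24.9% with EnnA, and 15.6% and 16.1% with 17-AAG. Hsbp1, whose product binds HSF1 and dampens it, fell to 79.2 FPKM with 17-AAG against 106.2 FPKM with DMSO (log2 change -0.42). The acetyltransferase gene Ep300 and the deacetylase genes Hdac6 and Sirt1 rose with 17-AAG (0.38, 0.34 and 0.51). With EnnA Fbxw7, a ubiquitin ligase subunit that acts on HSF1, fell (-0.89), and Hsf2, Crtc2 and Sirt1 rose (0.37, 0.54 and 0.34).

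Of 26 heat shock response genes 23 had a row. With EnnA 11 rose, 2 fell and 10 were not called (median 0.30), and with 17-AAG 12 rose, 2 fell and 9 were not called (median 0.52). The shares of all genes called higher and lower were 24.3% and 24.9% with EnnA, and 15.6% and 16.1% with 17-AAG. Hspa8, the constitutive HSP70 that works upstream of HSP90 through Stip1, was at 453.4 FPKM with EnnA against 1070 FPKM with DMSO, and at 2432 FPKM with 17-AAG against 1172 FPKM with DMSO. Its difference between the compounds, -2.29 (SE 0.40), was called and had the sign of those of Hsp90aa1 and Hsp90ab1. The HSP70 exchange factor genes Hsph1 and Hspa4l and the small heat shock gene Cryab, all risen with 17-AAG (1.47, 1.03 and 1.57), were also lower with EnnA than with 17-AAG (differences -1.18, -0.99 and -1.34). Zfand2a and Sqstm1 differed in the other direction (2.57 and 1.79). Sqstm1, an autophagy receptor gene, rose with both compounds (2.19 with EnnA and 0.40 with 17-AAG), whereas Zfand2a, a gene of proteasome regulation under arsenite, was at 86.2 FPKM with EnnA against 19.4 FPKM with DMSO, and at 15.1 FPKM with 17-AAG against 21.3 FPKM with DMSO. Over the 23 tested genes of the list, 6 were higher and 6 lower with EnnA than with 17-AAG, against 19.3% and 18.6% of all genes. Hspa1b rose with both (1.78 with EnnA and 1.90 with 17-AAG) and Hspa2 fell with EnnA (-1.41); Hspa1b has a near-identical neighbour, Hspa1a, so its value is uncertain.

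Steroid receptor and glucocorticoid target genes were set beside the immunophilins. The glucocorticoid receptor gene Nr3c1 was at 25.6 FPKM with EnnA against 24.3 FPKM with DMSO, and at 26.4 FPKM with 17-AAG against 26.6 FPKM with DMSO, not called with either. Of 17 listed genes 10 had a row, of which 5 rose and 1 fell with EnnA (median 0.45), and 2 rose and 4 fell with 17-AAG (median 0.02). All genes beside them had 24.3% called higher and 24.9% lower with EnnA, and 15.6% and 16.1% with 17-AAG. Tsc22d3, a target of the receptor like Fkbp5, rose to 52.0 FPKM with EnnA against 16.8 FPKM with DMSO, and fell to 8.68 FPKM with 17-AAG against 18.4 FPKM with DMSO. Sgk1 fell with both compounds (log2 changes -1.38 with EnnA and -0.75 with 17-AAG), and Dusp1 rose with EnnA (1.25) and fell with 17-AAG (-0.46). Per1 rose with EnnA (1.76), and with 17-AAG Errfi1 fell (-0.73) and Ddit4 rose (0.64). Fkbp5 and Tsc22d3 were thus both lower with 17-AAG, while the listed targets Per1 and Klf9 were not called with it. With EnnA Fkbp5 was not called, and its change was not shown to differ between the compounds. Esr1 was low, at 1.57 FPKM with EnnA against 0.559 FPKM with DMSO and at 1.09 FPKM with 17-AAG against 0.613 FPKM with DMSO, called higher in both.

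Of the 3 epithelial markers with a row, 0 rose and 2 fell with EnnA (Krt8 and Elf3), and 1 rose (Krt8) and 0 fell with 17-AAG. Beside these and the marker counts below, 24.3% of all genes were called higher and 24.9% lower with EnnA. With 17-AAG the shares were 15.6% and 16.1%. Called markers of other cell types moved in both directions, except the myeloid markers with 17-AAG, where those called fell. Of 10 myeloid markers 4 had a row, of which 1 rose and 2 fell with EnnA, and 0 rose and 2 fell with 17-AAG. S100a8 fell to 60.7 FPKM with EnnA against 220.3 FPKM with DMSO, and to 28.5 FPKM with 17-AAG against 241.4 FPKM with DMSO. Cd68 rose to 89.1 FPKM with EnnA against 37.95 FPKM with DMSO, and fell to 17.1 FPKM with 17-AAG against 41.6 FPKM with DMSO. The summed myeloid level, to which S100a8 gave the most with DMSO, was 160.3 FPKM with EnnA against 273.0 FPKM with DMSO, and 63.4 FPKM with 17-AAG against 299.1 FPKM with DMSO. Of the 6 mesenchymal markers with a row, 2 rose (Pdgfra, at 26.5 FPKM with EnnA against 10.1 FPKM with DMSO, and Pdgfrb) and 3 fell (Vim, Acta2 and Col3a1) with EnnA. With 17-AAG 2 rose (Col1a1, at 3.95 FPKM against 0.620 FPKM with DMSO, and Pdgfrb) and 1 fell (Vim). Their sum, most of it Vim (1209 FPKM with EnnA against 2746 FPKM with DMSO, and 2154 FPKM with 17-AAG against 3009 FPKM with DMSO), was 1305 FPKM with EnnA against 2958 FPKM with DMSO, and 2417 FPKM with 17-AAG against 3241 FPKM with DMSO. In such bulk samples fewer cells of a kind and less RNA per cell cannot be told apart, and the part of these markers in the results above was not tested.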

How the data were processed

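RNA of E0771 cells was sequenced in 6 libraries, 2 for each of EnnA, 17-AAG and DMSO. The submitters' processing notes name STAR, Cufflinks, Cuffdiff and the mm9 genome. Versions and the handling of reads that map to several places are not stated there. The authors deposited 2 tables, normalized separately, with a value per group taken here to be FPKM from the Cuffdiff layout, a log2 fold change of DMSO over compound, a p-value and a q-value. These log2 values in the deposited tables were checked against the FPKM ratio (0 genes with EnnA and 2 with 17-AAG were off by more than 0.1), and the deposited q-value matched a Benjamini-Hochberg adjustment of the deposited p-value.

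Log2 changes were recomputed with a pseudocount of 1, compound over DMSO. The implied SE is the size of the change over the two-sided normal z that matches the authors' p. Depth per library is unknown, so its precision cannot be given, and pooled values do not show how far the implied SE reflects each gene's own spread. The 10 members had similar implied SE, 0.15 to 0.16 with EnnA and 0.14 to 0.20 with 17-AAG. The members, lists and tests were chosen with earlier results of these data known. Named genes are all members, up to 5 called genes per list and comparison by size of change with at least 1 FPKM in a group, Hsp90b1, Trap1 and the 3 genes nearest to each cytosolic HSP90 gene; others named were chosen after their values were seen. In neither table did a member share its locus with another listed gene. Alternatives were a threshold of 0.01, a minimum change of 1.5-fold, pseudocounts of 0 and 0.1, adjustment over genes of at least 1 FPKM, and centring. Analyses used Python 3.11.15, numpy 2.4.6, pandas 2.3.3 and scipy 1.17.1.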

Additional observations from a re-analysis of the deposited data

How the results depend on the processing

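The EnnA count of called members was 0 also with adjustment over genes of at least 1 FPKM and with centring on the median gene. A stricter q, a minimum change and another pseudocount could not raise that count by construction, since the authors' q does not depend on the pseudocount. The 17-AAG count of 5 was 4 at a q of 0.01 and 2 with a minimum change of 1.5-fold, which left Hsp90aa1 and Hsp90ab1, since a smaller change cannot pass by construction; it was 5 with adjustment over genes of at least 1 FPKM and with centring, and another pseudocount could not change it. The count of 2 members that differed between the compounds was 1 at a threshold of 0.01 (Hsp90aa1) and 2 without a pseudocount, with centring, and with the SE of genes at the lowest p replaced by the median of their FPKM decile. Counts of related genes called, 37 with EnnA and 34 with 17-AAG, were 29 and 25 at a q of 0.01 and 36 and 34 with centring. At the main threshold 49.2% of all genes were called with EnnA and 31.6% with 17-AAG. The lists behind these counts had 36, 5, 11, 23 and 10 genes with a row with EnnA. With 17-AAG they had 37, 5, 11, 23 and 10, and Cacybp stood in both the cochaperone and the heat shock list. The log2 changes of all 10 members kept their direction with pseudocounts of 0 and 0.1 and with centring, and with centring, the 1 of these that could move a call, their side of the threshold. No library could be left out, and no paired analysis was possible because the tables hold 1 pooled value per group. For the members, an observed log2 change below about 0.33 could not be called at the implied errors. That sets no limit on the size of the true change.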

Other observations

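In the other lists, promoter windows with 3 adjoining heat shock units were found for Hsph1, Hspd1 and Hspe1 among 22 heat shock response genes matched in the RefSeq table, and for 0 of 31 other HSP90 cochaperone genes matched. A pair of units was found for 11 and 4 genes of these lists. Of all 32851 windows, 15.1% held a pair and 0.603% held 3 adjoining units. Those shares are per window, whereas the list counts are per gene over all its windows, so they are not directly comparable. Whether windows of different genes overlap was not checked. Hspd1, a mitochondrial chaperonin gene, was at 246.6 FPKM with EnnA against 209.9 FPKM with DMSO (not called), and at 356.3 FPKM with 17-AAG against 230.0 FPKM with DMSO (called higher). Hspe1, the gene of its cofactor, was at 451.6 FPKM with EnnA against 293.7 FPKM with DMSO, and at 469.3 FPKM with 17-AAG against 321.8 FPKM with DMSO, called higher with both.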
